A study of Mus musculus with 10 samples.

Results

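The genes described here encode receptors for neuropeptides and peptide hormones, together with the accessory proteins Ramp1, Ramp2 and Ramp3, in the accumbens shell of wild-type mice. They were taken by symbol from a list of 34 genes, which was drawn up with earlier results of these data known. Of these, 28 were found among the 20483 genes of the expression table, and 6 (Hcrtr1, Cckar, Vipr2, Grpr, Lepr and Ghsr) were not analysed here. The nucleus accumbens forms the ventral striatum, and the series compares its lateral shell (n = 5 libraries) with its medial shell (n = 5 libraries). The labels call the 5 libraries of each region biological replicates and give the genotype of both groups as WT, but state neither age, sex nor strain, nor whether each library came from its own animal, so p-values measure the spread between these libraries, which may be partly technical. The RNA was obtained with Geo-seq, which amplifies the RNA of small laser-captured pieces of tissue. Values are TPM, transcripts per 1000000, a level per transcript length that can be compared between genes. TPM keeps no read depth, so the depth behind each value is unknown, and genes with no signal are given as listed at 0.

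Most of these receptors are G-protein-coupled receptors on neurons, and their peptides reach the accumbens either from axons of the hypothalamus, brainstem and thalamus or from local interneurons. Orexins and melanin-concentrating hormone are made by neurons of the lateral hypothalamus and act on arousal, feeding and reward. Somatostatin and neuropeptide Y are made within the striatum by a shared class of sparse GABAergic interneurons. The labels name the cells only as mouse neural cells, and the captured tissue held markers of several cell types. Markers of spiny projection neurons, by far the most numerous striatal neurons, summed to 3974 to 6251 TPM in lateral and 3992 to 6412 TPM in medial libraries, while the 3 of 8 glutamatergic markers in the table summed to at most 3.31 TPM in any library. The values below therefore describe shell tissue and not neurons alone, and in such tissue fewer cells of a type cannot be told apart from less RNA per cell.

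Libraries listed 15402 to 17003 genes above 0, mitochondrial genes took 23.5% to 35.3% of the TPM, and no 2 libraries were identical. Lateral replicate 5 and medial replicate 2 stood apart in AY036118, at 1.38 and 1.42 TPM against at least 82500 TPM elsewhere. Without this pair, in an alternative chosen after seeing the data, 15 genes were called higher in lateral and 35 higher in medial. That fit has fewer libraries. With all libraries and a term for this split, also chosen after seeing the data, these numbers were 53 and 141, against 60 and 171 in the main fit.

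Among the members, the orexin receptor gene Hcrtr2 was higher in the medial shell, and it was the only one of the 16 tested to differ at the threshold of an adjusted p under 0.05. The melanin-concentrating hormone receptor gene Mchr1 had no overlap between the regions either, with medial values above lateral values, but did not pass. The other 14 tested members had overlapping values, and 12 members were near 0 in most libraries. No tested member was higher in lateral at the threshold in limma, and none was at an unadjusted p under 0.05. Over all 15596 genes tested, 1.48% were called, 0.385% higher in lateral and 1.1% higher in medial.

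The sequence before the start site of Mchr1 is shown because Mchr1 and Hcrtr2 were the 2 tested members whose regions did not overlap. It is the 250 bases upstream of the RefSeq start site on GRCm38.p6, at chr15:81235249-81235498 on the plus strand, given 5′ to 3′ with motif matches in capitals. Of the 28 members in the table, 23 matched such an entry. That of Hcrtr2 is not printed because GENCODE M21 annotates most of it as transcribed.
Mchr1: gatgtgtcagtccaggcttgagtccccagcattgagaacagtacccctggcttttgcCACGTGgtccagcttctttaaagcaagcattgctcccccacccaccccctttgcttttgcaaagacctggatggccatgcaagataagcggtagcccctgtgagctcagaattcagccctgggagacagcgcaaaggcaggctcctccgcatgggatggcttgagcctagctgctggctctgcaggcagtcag
Both strands were searched for a cAMP response element (TGACGTCA, and its short form TGACG, which lies within it), a TATA box (TATAAA), an E-box (CANNTG), a GC box (GGGCGG) and a CCAAT box (CCAAT). The Mchr1 stretch held an E-box, beginning at base -193, and 66.2% of 32851 promoters held one. The other motifs had no match in this window. Its GC content was 57.2%, against a median of 52.4% over all promoters.

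Hcrtr2 encodes orexin receptor 2, which binds both orexin peptides and excites neurons, and its gene spans 76225880 to 76323856 of chromosome 9 on the minus strand (GRCm38). It stood at 2.85, 10.5, 7.03, 7.64 and 6.16 TPM in medial libraries 1 to 5. In lateral libraries 1 to 5 it stood at 0, 0.347, 0.127, 0 and 1.23 TPM. The lowest medial library was thus above the highest lateral one, and only lateral replicate 5 reached 1 TPM in its group. The means were 0.340 ± 0.516 TPM (SD, n = 5) in lateral and 6.83 ± 2.74 TPM (SD, n = 5) in medial, a log2 fold change of -2.53, taken as the lateral minus the medial mean of log2(TPM + 1) (standard error 0.42, 95% interval -3.43 to -1.64, limma adjusted p = 0.0130). Without the pair of libraries near 0 for AY036118 it was -2.58 (limma adjusted p = 0.0441), and with a term for that split Hcrtr2 was again the only member called. The fit without the pair kept the filter over all 10 libraries, and Hcrtr2 would have failed a filter over the remaining ones. The size rests on the pseudocount, at -4.59 with 0.1 and -1.12 with 5. A filter of 5 TPM removed the gene, which passed the filter of 1 TPM in 5 libraries through the group in which it is high. Gm27234 lies on the opposite strand and averaged 0.431 TPM in lateral and 2.73 TPM in medial (limma adjusted p = 0.310), and the reads of both genes would be mixed in counts made without strand. The orexin precursor gene Hcrt was listed at 0 in every lateral library and in 3 medial ones, with 5.50 TPM in medial replicate 2 and 1.06 TPM in medial replicate 5.

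Mchr1 encodes the receptor for melanin-concentrating hormone, which inhibits neurons through Gi proteins, and lies at 81235499 to 81238964 of chromosome 15 on the plus strand. It was the most abundant receptor of the list, exceeded among the members by Ramp1 alone. Its level was 38.0, 44.2, 35.6, 36.1 and 35.4 TPM in lateral libraries 1 to 5 and 54.3, 86.9, 47.5, 81.6 and 112 TPM in medial libraries 1 to 5. Lateral libraries lay close together and medial ones spread over a wider range above them. The means were 37.8 ± 3.69 TPM and 76.4 ± 26.0 TPM (SD, n = 5 each), with a log2 fold change of -0.93 (standard error 0.22, 95% interval -1.41 to -0.45, limma adjusted p = 0.0610). The adjusted p passed the threshold in 2 of 23 alternatives, at 0.0418 without medial replicate 1 and 0.0380 without medial replicate 3. It was highest, at 0.256, without the pair of libraries near 0 for AY036118, and was 0.0822 with all libraries and a term for that split. Of the summed TPM of the 25 receptor genes without the Ramp genes, Mchr1 took 19.4% to 34.3% in lateral and 31.9% to 45.1% in medial libraries. Its ligand precursor gene Pmch was listed at 0 in 7 of 10 libraries and reached at most 6.85 TPM. Counting Hcrtr2 and Mchr1, 2 of 16 tested members had regions that did not overlap, where 4.25% of all genes tested did. Hcrtr2 passed the filter through its medial values, and the list was drawn up with earlier results known. No excess among the members can therefore be read from these shares.

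**Figure D1:**
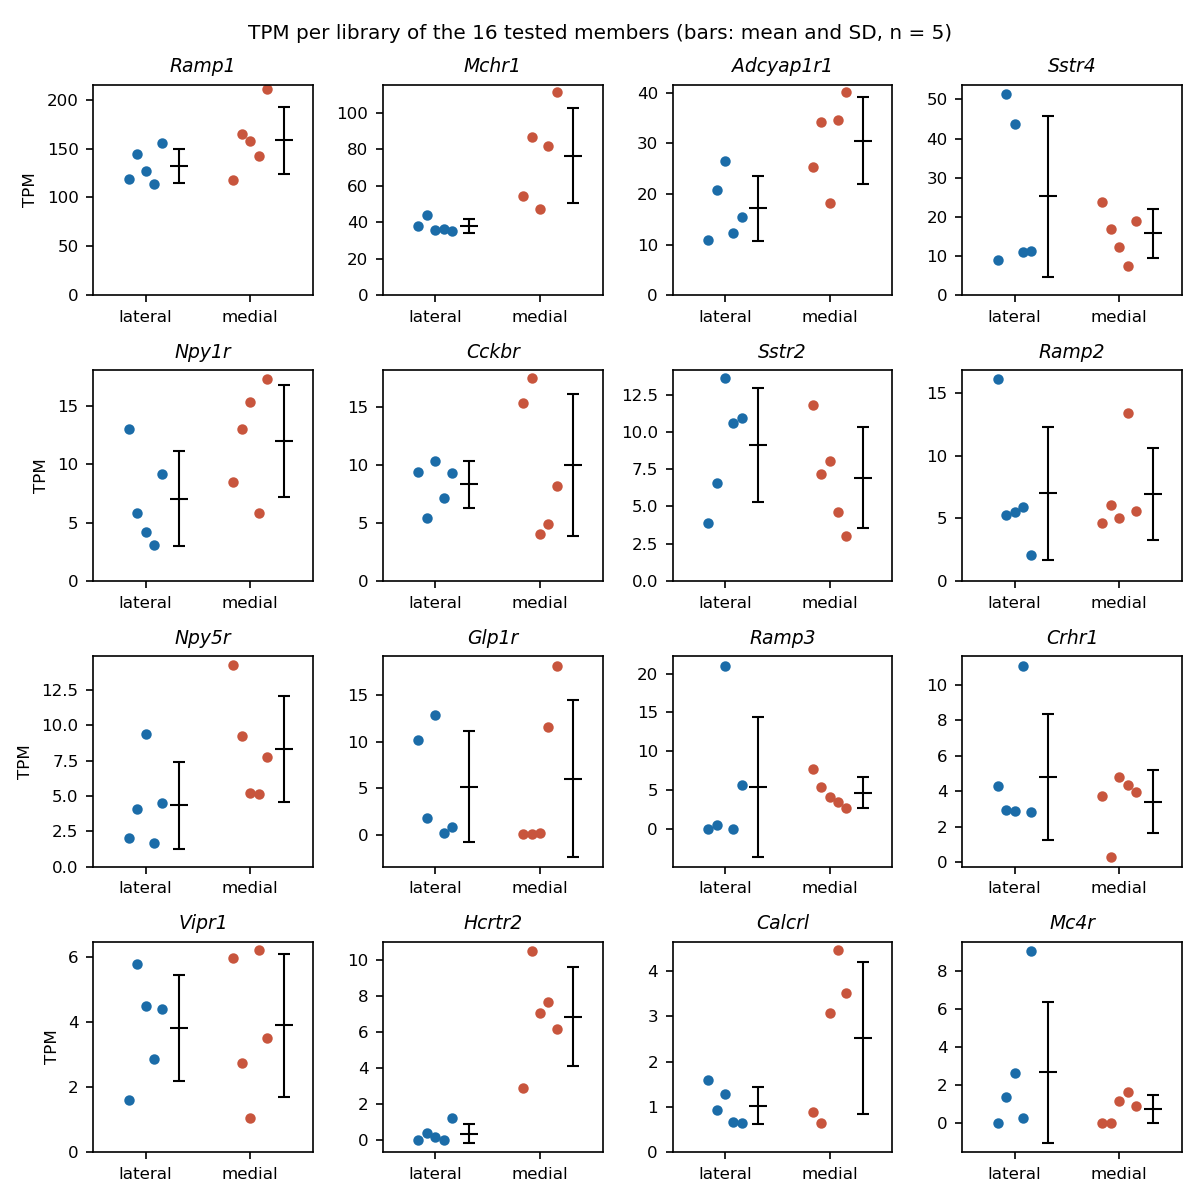
Level in TPM (linear axis from 0, or just below it where an error bar reaches under 0) of the 16 tested members in each lateral (blue) and medial (red) library, ordered by mean level. Black marks show the mean and SD of 5 libraries. Hcrtr2 and Mchr1 are the panels in which every medial point lies above every lateral point.

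**Figure D2:**
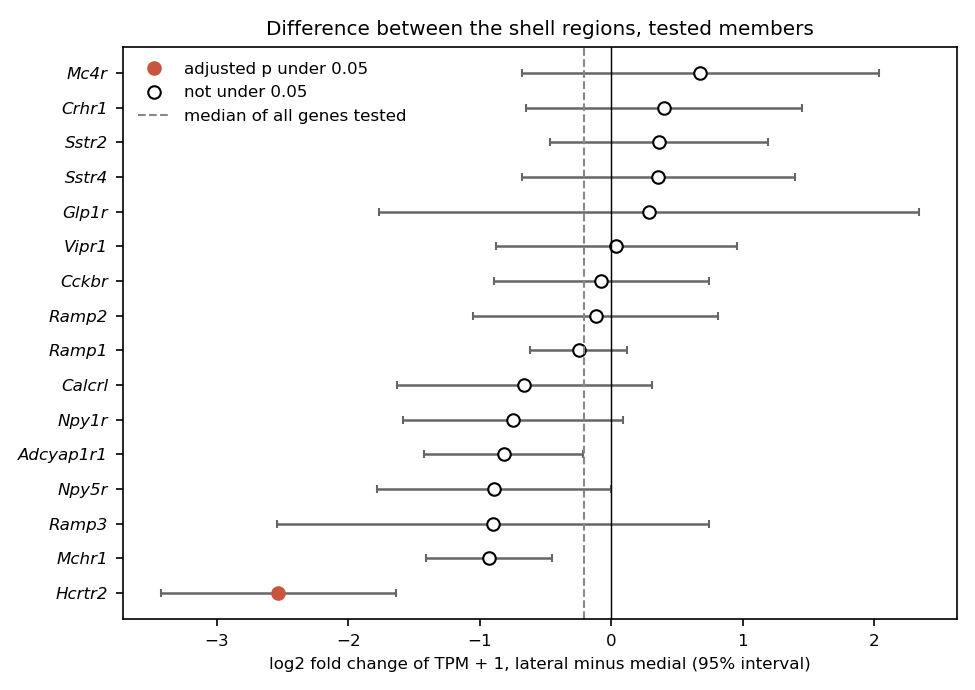
Log2 fold change of TPM + 1, lateral minus medial, with its 95% interval for the 16 tested members. The filled point, Hcrtr2 at -2.53, is the member with an adjusted p under 0.05, and the dashed line is the median of all genes tested, -0.21.

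The median log2 fold change was -0.18 over the 16 tested members and -0.21 over all genes tested, so most values were lower in lateral at the deposited scaling, for 10 of 16 members and for 10712 of 15596 genes. Under median-ratio scaling these medians were 0.01 and -0.02, and under quantile normalization -0.03 and -0.0010. Hcrtr2 was at -2.42 (limma adjusted p = 0.0140) and -2.32 (0.0209) under these scalings, and Mchr1 at -0.72 (0.0870) and -0.82 (0.0561). The calls over all genes split into 60 higher in lateral and 171 higher in medial as deposited, 88 and 82 under median-ratio scaling, and 86 and 100 under quantile normalization.

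Neuropeptide Y receptors, which couple to Gi proteins and inhibit neurons, were represented by Npy1r and Npy5r, with Npy2r low. Npy1r stood at 13.0, 5.83, 4.15, 3.09 and 9.13 TPM in lateral libraries 1 to 5 and at 8.5, 13.0, 15.4, 5.80 and 17.3 TPM in medial libraries 1 to 5. Lateral replicates 1, 2 and 5 lay within the medial range (limma adjusted p = 0.382, log2 fold change -0.75 with a 95% interval of -1.58 to 0.09). Npy5r was at 2.02, 4.10, 9.40, 1.70 and 4.51 TPM in lateral and 14.3, 9.23, 5.18, 5.15 and 7.77 TPM in medial libraries. Its values overlapped through lateral replicate 3 (log2 fold change -0.89, 95% interval -1.78 to -0.0015, adjusted p = 0.324). Npy1r and Npy5r are neighbouring genes on chromosome 8 that lie on opposite strands without overlapping. Npy2r, a receptor often found on nerve terminals, reached 10.8 TPM in lateral replicate 1 and 6.12 TPM in lateral replicate 3, was at 3.38 TPM in medial replicate 3 and did not exceed 1.09 TPM in the other 7 libraries.

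The Npy gene itself averaged 1258 ± 1047 TPM in lateral and 199.5 ± 343 TPM in medial tissue (SD, n = 5 each), with a log2 fold change of 4.16 (95% interval 1.80 to 6.52, limma adjusted p = 0.0834). It ran from 186 to 2962 TPM in lateral libraries and from 6.82 to 804 TPM in medial ones. Of 23 alternatives, 1 passed the threshold for Npy: the adjusted p was 0.0206 without medial replicate 5, the medial library at 804 TPM, and reached 0.283 without the pair of libraries near 0 for AY036118.

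Of the somatostatin receptors, which also couple to Gi proteins, Sstr4 and Sstr2 were measured above the filter. Sstr4 stood at 8.91, 51.5, 43.6, 11.1 and 11.2 TPM in lateral libraries 1 to 5 and at 23.8, 16.9, 12.2, 7.45 and 18.9 TPM in medial libraries 1 to 5. Lateral replicates 2 and 3 lay above all other libraries, and the other 3 lateral libraries lay within the medial range (limma adjusted p = 0.767, log2 fold change 0.36 with a 95% interval of -0.68 to 1.40). Sstr2 ran from 3.90 to 13.6 TPM in lateral and from 3.03 to 11.8 TPM in medial tissue (0.36, 95% interval -0.47 to 1.19, adjusted p = 0.696). Sstr2 lies opposite Slc39a11. Sstr1 reached 5.67 TPM in medial replicate 3 and at most 1.69 TPM elsewhere, and Sstr3 reached 3.34 TPM in medial replicate 4. The somatostatin gene Sst averaged 1146 ± 921 TPM in lateral and 191 ± 357 TPM in medial tissue (SD, n = 5 each), with a log2 fold change of 5.11 (95% interval 2.18 to 8.05, limma adjusted p = 0.0890). It was listed at 0 in medial replicate 1 and was at 825 TPM in medial replicate 5. Its adjusted p was 0.0206 without that library, the only one of 23 alternatives to pass the threshold, and 0.261 without the pair near 0 for AY036118. Sst and Npy are ordered alike across libraries at both ends: lateral replicate 3 was highest for both and medial replicate 1 lowest for both.

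Adcyap1r1, encoding the PAC1 receptor for the peptide PACAP and coupled to Gs proteins, followed Mchr1 in abundance. It stood at 10.9, 20.8, 26.4, 12.2 and 15.4 TPM in lateral libraries 1 to 5 and at 25.3, 34.2, 18.3, 34.6 and 40.1 TPM in medial libraries 1 to 5. Medial replicates 1 and 3 fell within the lateral range, and the other 3 medial libraries lay above it. The means were 17.1 ± 6.45 TPM and 30.5 ± 8.64 TPM (SD, n = 5 each), with a log2 fold change of -0.82 (95% interval -1.42 to -0.21, limma adjusted p = 0.186). Vipr1, the VIP receptor that also binds PACAP, averaged 3.83 ± 1.63 TPM in lateral and 3.91 ± 2.20 TPM in medial (log2 fold change 0.04, 95% interval -0.88 to 0.96, adjusted p = 0.976). At the deposited scaling, 4 members stood at an unadjusted p under 0.05: Hcrtr2, Mchr1, Adcyap1r1 and Npy5r. All were higher in medial, where 12.3% of all genes tested met that mark in the medial direction. Under median-ratio scaling and quantile normalization Npy5r was at -0.72 (standard error 0.43) and -0.59 (0.41). Adcyap1r1 was at -0.62 (0.26) under both.

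To ask whether receptors of a family shifted unequally, the log2 ratio of their TPM + 1 was compared between the regions for the 6 of 22 fixed pairs in which both genes were tested. The ratio of Adcyap1r1 to Vipr1 was 1.91 in lateral and 2.77 in medial on the log2 scale, a difference of -0.86 (two-sided exact permutation p = 0.0397, n = 5 per region, and 0.238 adjusted over 6 pairs). The ratio of Npy1r to Npy5r differed by 0.14 (exact permutation p = 0.849) and that of Sstr2 to Sstr4 by 0.0039 (exact permutation p = 0.984). The 3 pairs of Ramp genes had exact permutation p from 0.492 to 0.825. No pair passed after adjustment. The smallest p that 5 against 5 libraries can give is 0.00794.

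Crhr1, the main receptor of corticotropin-releasing hormone, was at 4.31, 2.93, 2.90, 11.1 and 2.83 TPM in lateral libraries 1 to 5 and at 3.72, 0.298, 4.81, 4.33 and 3.95 TPM in medial libraries 1 to 5. Apart from lateral replicate 4 above and medial replicate 2 below, all libraries lay between 2.83 and 4.81 TPM (limma adjusted p = 0.740, log2 fold change 0.40 with a 95% interval of -0.65 to 1.45; -0.000048 without medial replicate 2). Crhr2 did not exceed 1.64 TPM. The Crh gene was above 0 in all lateral libraries, at 2.55 to 12.7 TPM, and in medial replicate 3 at 7.36 TPM, and was listed at 0 in the other 4 medial libraries (limma adjusted p = 0.120). Over 22 alternatives its adjusted p ran from 0.0226, without medial replicate 3 and the only one past the threshold, to 0.258, and its log2 fold change from 0.90 to 4.62. Crhbp, whose product binds the hormone outside cells, ran from 0 to 7.96 TPM in lateral and from 0 to 36.4 TPM in medial libraries (adjusted p = 0.430).

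Cckbr, the cholecystokinin receptor that predominates in brain, was among the most abundant receptors. It stood at 9.38, 5.43, 10.3, 7.14 and 9.27 TPM in lateral libraries 1 to 5 and at 15.3, 17.5, 4.05, 4.89 and 8.15 TPM in medial libraries 1 to 5. The medial libraries surrounded the lateral range on both sides (limma adjusted p = 0.946, log2 fold change -0.08 with a 95% interval of -0.89 to 0.74). The sign was positive under median-ratio scaling and quantile normalization. Cck was at 4.58 to 19.0 TPM in lateral libraries and at 0 to 2.89 TPM in 4 medial ones, with 10.2 TPM in medial replicate 5 (limma adjusted p = 0.145). Over 23 alternatives its adjusted p ran from 0.0436, without that library and the only one past the threshold, to 0.389, and its log2 fold change from 0.98 to 3.52. Cck is named for its receptor, after its values were seen.

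**Figure D3:**
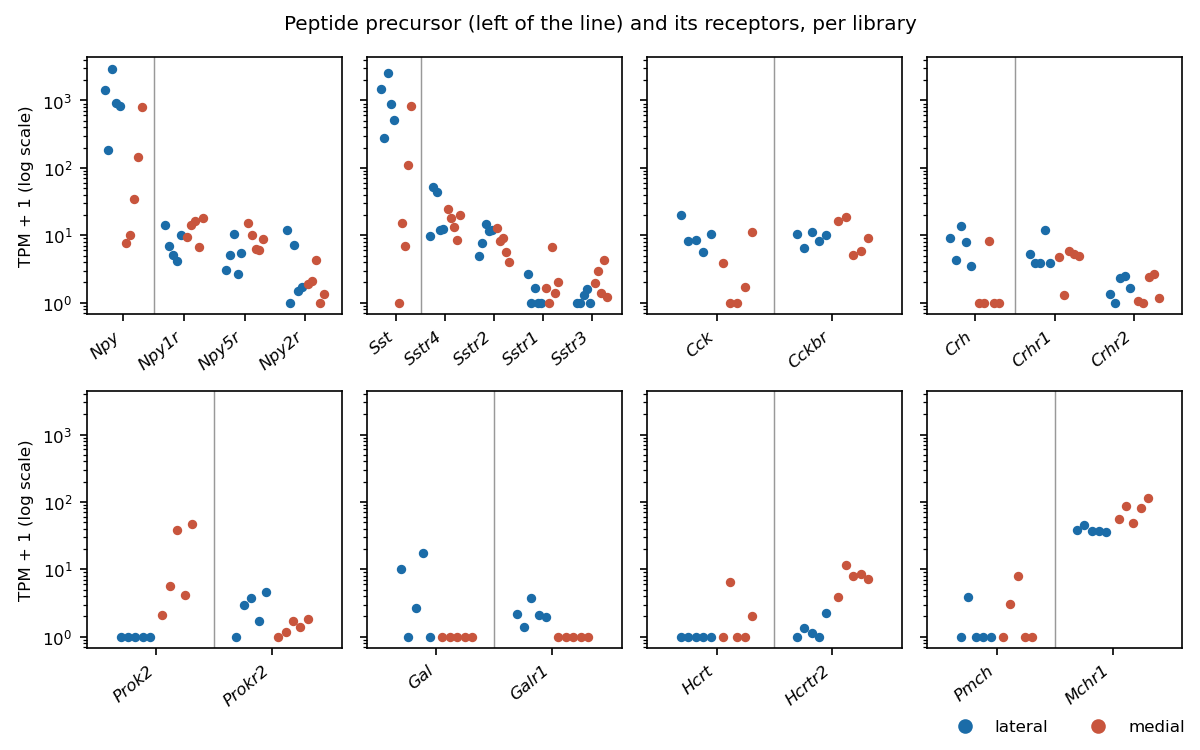
TPM + 1 on a log axis for 8 peptide precursor genes (left of the line in each panel) and their receptors, with each lateral (blue) and medial (red) library as a point. Npy and Sst stand far above their receptors in most lateral libraries, and Prok2 lies at the floor in all 5 lateral libraries.

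Glp1r, encoding the receptor of the gut and brainstem peptide GLP-1, was at 10.2, 1.82, 12.9, 0.183 and 0.846 TPM in lateral libraries 1 to 5 and at 0.105, 0.126, 0.172, 11.6 and 18.2 TPM in medial libraries 1 to 5. It was above 10 TPM in 2 libraries of each region and under 2 TPM in the other 6. The spread around the region means, a residual SD of 1.85 on the log2 scale, exceeded that of 99.4% of all genes tested, whose median was 0.548. The log2 fold change of 0.29 had a 95% interval of -1.76 to 2.34 (limma adjusted p = 0.915), and its sign was negative in 5 of the 10 fits that left out 1 library. Mc4r, a melanocortin receptor that restrains feeding, was at 0, 1.39, 2.66, 0.286 and 9.05 TPM in lateral and at most 1.65 TPM in medial libraries (0.68, 95% interval -0.68 to 2.04, adjusted p = 0.650). Mc3r exceeded 1 TPM in lateral replicate 4 alone, at 3.15 TPM.

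The Ramp genes encode single-pass proteins that decide the peptide bound by the calcitonin receptor-like receptor, Calcrl: RAMP1 makes it a receptor for CGRP, and RAMP2 and RAMP3 make it a receptor for adrenomedullin. Ramp1 was the most abundant member, at 119, 144, 127, 114 and 156 TPM in lateral libraries 1 to 5 and 118, 165, 157, 142 and 211 TPM in medial libraries 1 to 5. It took 37.7% to 54.3% of the summed TPM of the 28 members in a library. It was also the least variable, with a residual SD of 0.253 (limma adjusted p = 0.523, log2 fold change -0.25 with a 95% interval of -0.61 to 0.12). Its partner Calcrl stood far lower, at 0.648 to 1.59 TPM in lateral and 0.892, 0.648, 3.07, 4.45 and 3.52 TPM in medial libraries 1 to 5. Medial replicates 3, 4 and 5 were above all lateral libraries and medial replicates 1 and 2 were not (-0.66, 95% interval -1.63 to 0.31, adjusted p = 0.517).

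Ramp2 ran from 2.06 to 16.1 TPM in lateral and from 4.63 to 13.4 TPM in medial tissue. Its log2 fold change was -0.12 (95% interval -1.05 to 0.81, limma adjusted p = 0.922), with a positive sign under median-ratio scaling and quantile normalization. It overlaps Vps25 on the same strand, a gene that averaged 44.8 TPM in lateral and 47.1 TPM in medial. Ramp3 was at 0, 0.453, 21.04, 0 and 5.66 TPM in lateral and 2.70 to 7.71 TPM in medial libraries. Lateral replicate 3 was the highest of all and 3 lateral libraries lay under every medial one (-0.90, 95% interval -2.54 to 0.75, adjusted p = 0.617). Calcrl and Ramp2 are known for their expression in endothelial cells. Endothelial markers summed to 239 to 506 TPM in lateral and 266 to 467 TPM in medial libraries, with 8 of 11 tested markers higher in lateral and none called. Their part in the values of Calcrl and Ramp2 was not tested.

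The calcitonin receptor gene Calcr, whose product forms amylin receptors with the RAMP proteins, was not a member and belonged to the list of 22 other receptors of the same families, of which 3 were in the table and none was tested. It was at 0.305, 0, 0, 0.123 and 0.0458 TPM in lateral libraries 1 to 5 and at 0.334, 5.83, 5.04, 2.78 and 2.50 TPM in medial libraries 1 to 5. The regions did not overlap, although medial replicate 1 was only just above the highest lateral library. Calcr reached 1 TPM in 4 libraries and so failed the filter, and without a filter its limma adjusted p was 0.0952 over 19967 genes. It was singled out after its values were seen.

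The 12 members that failed the filter of at least 1 TPM in at least 5 libraries were Npy2r, Prokr2, Sstr1, Rxfp3, Sstr3, Crhr2, Galr1, Nmbr, Oxtr, Mc3r, Rxfp1 and Avpr1a. Their means over all 10 libraries ran from 0.10 TPM for the vasopressin receptor gene Avpr1a to 2.39 TPM for Npy2r. Avpr1a was listed at 0 in 8 libraries. The oxytocin receptor gene Oxtr reached at most 1.37 TPM and was listed at 0 in 5 libraries. The neuromedin B receptor gene Nmbr and Mc3r were each listed at 0 in 7 libraries, and the relaxin receptor gene Rxfp1 in 6. Rxfp3, the relaxin-3 receptor, was above 1 TPM in 1 lateral library at 1.09 TPM and 2 medial libraries at 3.16 and 1.96 TPM. None of the 12 was called without a filter on low values (limma adjusted p of at least 0.139), against 0.826% of 19967 genes. There the unadjusted p of Galr1 was 0.00353 and that of Sstr3 0.0472.

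Galr1, encoding a galanin receptor that inhibits neurons through Gi proteins, was the one low member whose regions did not overlap. It was at 1.18, 0.396, 2.72, 1.07 and 0.969 TPM in lateral libraries 1 to 5 and listed at 0 in all 5 medial libraries (adjusted p = 0.139 without a filter, limma). Of the 4371 genes above 0 in some library that failed the filter, 0.549% had regions that did not overlap. The galanin gene Gal was above 0 in 3 lateral libraries, at 9.04, 1.69 and 16.3 TPM, and was likewise listed at 0 in all medial libraries. These levels are low, and with TPM alone no limit can be set on what a value of 0 allows.

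Prokr2, the receptor of prokineticin 2, a peptide known for guiding neuroblasts to the olfactory bulb and for circadian signalling, was at 0, 1.95, 2.80, 0.737 and 3.59 TPM in lateral libraries 1 to 5 and at 0, 0.163, 0.698, 0.380 and 0.805 TPM in medial libraries 1 to 5. Lateral replicates 2, 3 and 5 were above all medial libraries, and the others overlapped them. Its ligand gene Prok2 was listed at 0 in each of the 5 lateral libraries and stood at 1.07, 4.74, 36.8, 3.16 and 46.7 TPM in medial libraries 1 to 5. Medial values of Prok2 were thus all above 0 but spread widely, with replicates 3 and 5 far above the others. It passed the filter only through the medial libraries, and its limma adjusted p was 0.0526 with the filter and 0.0833 without it. Over 22 alternatives the adjusted p ran from 0.0195, without medial replicate 1, to 0.158, without the pair of libraries near 0 for AY036118, and 4 of them passed the threshold. Fits that left out a medial library tested Prok2 only because the filter still counted that library. The log2 fold change was -6.31 with a pseudocount of 0.1 and -1.68 with 5. Gm26748 lies on the opposite strand.

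**Figure D4:**
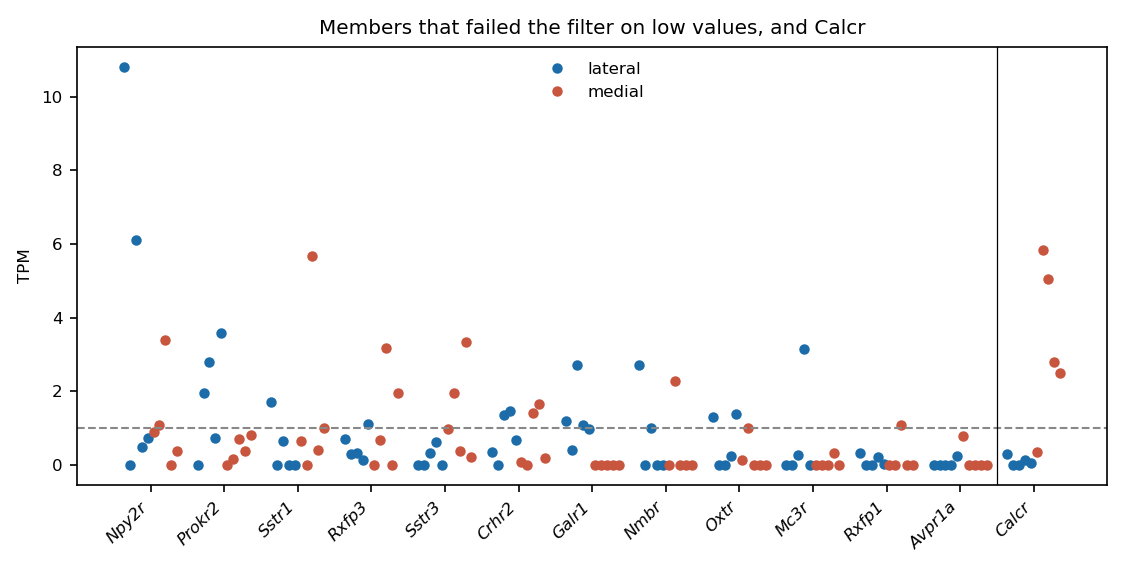
TPM per library of the 12 members that failed the filter on low values, ordered by mean, with Calcr to the right of the line. Lateral libraries are blue, medial libraries red, and the dashed line marks 1 TPM. Galr1 is above 0 in all 5 lateral and no medial library, and Calcr is above 2 TPM in 4 medial libraries.

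Of the 34 ligand precursor genes listed, 17 were in the table and 8 were tested. None passed at the threshold in limma, while at an unadjusted p under 0.05 there were 4 higher in lateral (Npy, Sst, Crh and Cck) and 1 higher in medial (Prok2), where 15.4% of all genes tested met that mark in either direction. Their median log2 fold change was 1.25. Of 23 accessory and feedback genes, 20 were tested, with a median of -0.09 and none called. Arrb1, encoding a beta-arrestin that uncouples activated receptors, was the only one with an unadjusted p under 0.05. It stood at 1.81, 4.83, 32.1, 0.785 and 25.6 TPM in lateral libraries and at 26.9 to 51.7 TPM in medial ones, so that lateral replicates 3 and 5 lay within or near the medial range and the others far under it (limma adjusted p = 0.148). Gprasp1, which sorts receptors after internalization, was at 71.0 and 91.0 TPM in lateral and medial (adjusted p = 0.353), the receptor kinase gene Grk3 at 4.35 and 7.53 TPM (0.380), and Leprot at 28.5 and 36.8 TPM (0.390). Jak2 and Stat3, through which the leptin receptor signals, had adjusted p of 0.945 and 0.946.

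Among the cell type marker lists, calls fell in the microglia and neuroblast lists. For scale, 10712 of all 15596 genes tested were lower in lateral, 0.385% were called higher in lateral and 1.1% higher in medial. Microglia markers were higher in lateral for 12 of 12, with 3 called (C1qa, Tmem119 and Ctss). They summed to 453 to 720 TPM in lateral and 214 to 465 TPM in medial libraries. Oligodendrocyte markers were higher in lateral for 11 of 12, with sums of 322 to 1071 and 118 to 524 TPM, and GABAergic interneuron markers, which include Npy, Sst and Cck, for 8 of 9, with sums of 538 to 5719 and 34.7 to 1710 TPM, and 0 genes were called in either list. Astrocyte markers were lower in lateral for 10 of 12, with sums of 851 to 1253 and 1041 to 1402 TPM and 0 called. All 6 tested neuroblast markers were lower in lateral, with sums of 15.1 to 37.9 and 38.9 to 63.2 TPM that did not overlap, and 1, Sox11, was called. No further list had a called gene: 3 of 7 cholinergic interneuron, 4 of 6 mural and leptomeningeal and 1 of 2 choroid plexus and ependymal markers were higher in lateral. Spiny projection neuron markers were higher in lateral for 6 of 12. Of these 12, 4 had an unadjusted limma p under 0.05, where 15.4% of all genes tested did. Tac1 (means of 317 TPM in lateral and 540 TPM in medial) and Pdyn (238 and 469 TPM) were higher in medial. Ppp1r1b (820 and 604 TPM) and Bcl11b (77.1 and 55.7 TPM) were higher in lateral. Every marker in the table was above 0 in at least 1 library. The part of these cell types in the differences of Hcrtr2, Mchr1 and the ligand genes was not tested.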

How the data were processed

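The authors deposited 1 table of TPM, scaled to 1000000 per sample, with 1 column for each of the 10 libraries. Tools listed in the submitters' processing notes, with no roles, are featureCounts 1.6.3, StringTie 1.3.4, HISAT2 2.1.0 and fastp 0.20.0, on the build GRCm38 (mm10). Annotation, strand setting and filters: not given in the sources used here. Coordinates and overlaps came from GENCODE M21 on GRCm38, which held all 20483 symbols, and promoter sequences from RefSeq.

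The test was a limma fit (version 3.58.1, R 4.3.3) to log2(TPM + 1), with empirical Bayes moderation that follows the mean. It covered the 15596 genes with at least 1 TPM in at least 5 of 10 libraries, with a Benjamini-Hochberg adjusted p under 0.05 over all of them as the threshold. In simulated data over these 15596 genes, 68, 66 and 66 genes were given true absolute log2 differences of 1, 2 and 3. Of these, 20.6%, 66.7% and 83.3% were recovered. The simulated noise was normal and independent between genes, with each gene's residual SD. It held no floor at 0 and no AY036118 split, so the shares apply to that setting and number of changed genes. Receptor pairs had exact permutation tests. All 28 members are accounted for. Of the lists, genes past the threshold and the 4 with the smallest p were to be named. Gal, Hcrt, Pmch, Cck, Crhbp, Calcr, Jak2 and Stat3 were added after their values were seen. So were the markers Igfbpl1, Sp8, Tac1, Pdyn, Ppp1r1b and Bcl11b. The members and lists were chosen with earlier results of these data known. Alternatives changed the pseudocount, filter, scaling, variance model, sample weights, replicate block and each library in turn. The filter counted all 10 libraries also where some were left out of the fit.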

Additional observations from a re-analysis of the deposited data

Results flagged for a closer look

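Of the 50 groups of 5 libraries checked (25 genes, each region, log2(TPM + 1)), 5 held a library set apart from the other 4 by more than Dixon's 95% limit, and chance flags about 1 in 20 groups. Crhr1 had a high library in lateral (replicate 4, 11.1 TPM) and a low library in medial (replicate 2, 0.298 TPM). Ramp2 was high in medial replicate 4 (13.4 TPM). Crh was at 7.36 TPM in medial replicate 3 and listed at 0 in the other medial libraries. Gprasp1 was low in medial replicate 1 (65.8 TPM).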

How the results depend on the processing

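Hcrtr2 kept its direction and its call in all 22 alternatives that tested it, with an adjusted p of 0.0068 to 0.0494. The fits that left out libraries kept the genes that passed the filter over all 10 libraries. Hcrtr2 had at least 1 TPM in 6 libraries, among them both libraries near 0 for AY036118. Without that pair, Hcrtr2 would have failed a filter applied anew. A filter of 5 TPM removed it, which left 0 members called. Leaving out 1 library gave 1 to 2 members called in medial, the second being Mchr1, and 0 to 3 ligand genes called in lateral and 0 to 1 in medial. A pseudocount of 0.1, rescaling without mitochondrial and haemoglobin genes and array weights each gave 1 ligand gene called in medial, Prok2. Over all genes, calls higher in lateral and in medial numbered 34 and 111 without a mean-variance trend, 19 and 45 with a replicate block and 15 and 35 without the libraries near 0 for AY036118. A term for the AY036118 split in place of leaving these out gave 53 and 141. Calls in medial numbered 107 with a pseudocount of 0.1, 82 under median-ratio scaling and 100 with quantile normalization. Leaving out 1 library gave 27 to 68 calls in lateral and 56 to 187 in medial, and moved the first by over 1.5 times for lateral replicates 1, 2, 4 and 5 and medial replicates 2 to 5, and the second for lateral replicates 1, 4 and 5 and medial replicates 2 to 5. These fits have fewer samples.

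The values showed no pairing by replicate number: same-numbered deviations correlated at -0.05 to 0.04, and 0 of 10 libraries correlated best with their own number. This cannot settle whether same-numbered libraries came from the same animal, which the labels do not state. With the replicate block Hcrtr2 was the member called (adjusted p = 0.0494).

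Of the 25 genes tested singly, 20 kept their sign in every alternative run. Without 1 library, Crhr1 ranged from -0.000048 to 0.54, Cckbr from -0.31 to 0.16, Glp1r from -0.17 to 0.93, Vipr1 from -0.24 to 0.24 and Ramp2 from -0.45 to 0.17. Cckbr was at 0.17 and Ramp2 at 0.12 with quantile normalization, 0.11 and 0.059 with median-ratio scaling, and 0.12 and 0.15 without the libraries near 0 for AY036118, where Vipr1 was at -0.082. The cause was not tested for any of these. The depth of the libraries is unknown, so no counting error can be given for low values.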
